A study of Mus musculus with 8 samples.

Results

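Complex I (NADH:ubiquinone oxidoreductase) is the entry point of the mitochondrial respiratory chain. It takes electrons from NADH, passes them along a flavin and a row of iron-sulphur clusters to ubiquinone, and pumps protons across the inner membrane. Its peripheral arm has an N module, which oxidises NADH, and a Q module, which reduces ubiquinone, and its membrane arm has a proximal and a distal part. In skeletal muscle, slow and fast oxidative fibres are known to hold more mitochondria than fast glycolytic fibres.

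The nuclear genes for its subunits are described here in mouse gastrocnemius, a mixed calf muscle. A gene was a member if its symbol was Nduf followed by a, b, c, s or v and a number, or was Ndufab1, and if an array transcript cluster was annotated to it alone. This gave 35 members among 19938 genes: 10 of the N module, 5 of the Q module, 9 of the proximal and 9 of the distal membrane arm, the acyl carrier Ndufab1 and Ndufa4. Ndufa4 carries a complex I name, but its product is now known as a subunit of complex IV. Ndufb1, Ndufb4 and the 7 subunits encoded by mitochondrial DNA were not analysed here; the clusters of Ndufb4 are shared with Ndufb4b. No filter on low values was used, so all 35 members were tested.

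The 8 male mice were 6 months old, ate chow and were fasted for 5 h, and each gave 1 Affymetrix array. All carried the floxed Gcn5 (Kat2a) alleles, written Gcn5 L2/L2. The 4 animals named Gcn5skm-/- also carried the HSAcre Tg/0 transgene, in which the human skeletal actin promoter drives Cre in muscle fibres (knockout), and the 4 named Gcn5skm+/+ were HSAcre 0/0 (wild type). Gcn5 is a lysine acetyltransferase that is known to acetylate PGC-1alpha, a coactivator of mitochondrial genes. Other cells of the muscle keep the gene, and the effects of Cre and of the deletion cannot be told apart.

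Values are log2 levels, so a difference of 1 is a doubling, and levels of different genes are not compared because their probes differ. Array medians lay between 4.61 and 4.72. The targeted gene Kat2a measured 6.46 ± 0.03 in wild type and 5.79 ± 0.05 in knockout (SD, n = 4 each; limma adjusted p = 0.0319, between 0.0619 and 0.137 without wild type 3, wild type 4 or any 1 knockout). Myh4, the myosin of the fastest fibres, lay between 12.18 and 12.29 in all arrays. Wild type 2 correlated least with the rest (mean r over all genes 0.987).

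Promoter sequences of 3 members are shown as examples, and no expression result rests on them. Ndufab1 had the steepest relation to the slow myosin Myh7 and Ndufa5 the smallest p between genotypes. Ndufs6 had a window with matches to both of the most frequent motifs. Each is a RefSeq window (GRCm38.p6) from 250 bases before to 50 bases after the first listed start, written 5′ to 3′ on the gene's strand, with motif matches in capitals. Ndufab1 lies on the minus strand at chr7:122101799-122102098, Ndufa5 on the minus strand at chr6:24527477-24527776 and Ndufs6 on the minus strand at chr13:73328433-73328732.
Ndufab1: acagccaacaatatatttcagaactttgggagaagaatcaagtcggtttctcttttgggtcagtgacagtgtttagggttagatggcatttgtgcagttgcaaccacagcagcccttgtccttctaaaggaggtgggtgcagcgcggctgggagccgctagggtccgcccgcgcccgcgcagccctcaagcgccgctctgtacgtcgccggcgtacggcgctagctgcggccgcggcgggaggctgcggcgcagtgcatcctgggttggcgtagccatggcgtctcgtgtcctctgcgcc
Ndufa5: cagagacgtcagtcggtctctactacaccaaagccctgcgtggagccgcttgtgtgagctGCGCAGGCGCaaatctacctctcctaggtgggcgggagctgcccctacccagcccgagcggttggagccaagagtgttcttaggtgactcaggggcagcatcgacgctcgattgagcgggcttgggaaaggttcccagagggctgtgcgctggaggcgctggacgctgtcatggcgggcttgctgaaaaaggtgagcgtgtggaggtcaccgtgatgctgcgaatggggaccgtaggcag
Ndufs6: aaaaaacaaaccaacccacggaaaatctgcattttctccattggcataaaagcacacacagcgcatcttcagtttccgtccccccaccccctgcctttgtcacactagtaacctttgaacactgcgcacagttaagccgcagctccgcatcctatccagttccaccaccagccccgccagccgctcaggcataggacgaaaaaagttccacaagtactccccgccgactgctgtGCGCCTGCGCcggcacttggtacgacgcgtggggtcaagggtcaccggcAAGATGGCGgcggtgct
The Ndufa5 match is to NRF1, beginning 190 bases before the listed start. This start lies inside the gene, whose 5′ end in RefSeq is at chr6:24527690, and the distance of 190 bases is not measured from that end. The Ndufs6 matches are to NRF1 (from 16 bases before the start) and YY1 (from base 34). No searched motif was found in the Ndufab1 window.

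A window was found for 32 of the 35 members, and 4 motifs of factors known from respiratory gene promoters were searched on both strands. The NRF1 motif was in 6 of 32 member windows (18.8%) and in 4.78% of 27025 windows of all genes. The YY1 letters AANATGGCG were also in 6 (18.8%), against 2.51% of all windows. In 5 of these 6 members, Ndufa9, Ndufc1, Ndufs4, Ndufs6 and Ndufs7, the YY1 letters lay on the gene's own strand and began between base 23 and base 36 after the start. The ETS letters CCGGAAG were in 4 windows (12.5%, against 9.12%), and the letters AAGGTCA of the ERR receptors in 2 (6.25%, against 4.66%). These matches describe the letters of the windows and were not tested. No 2 matches of different motifs overlapped in the windows shown.

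Knockout and wild-type muscle were first compared gene by gene, which asks whether complex I transcripts differ when fibres lack Gcn5. Of the 35 members, 0 passed a 5% false discovery rate in limma, in either direction; over all genes 0.015% passed, 0.00502% as higher and 0.01% as lower in knockout (3 genes, and 0 without wild type 3, wild type 4 or any 1 knockout). The member differences ran from -0.21 for Ndufa1 to 0.27 for Ndufa12, with a median of 0.02 (-0.01 over all genes), and 20 of 35 were higher in knockout (45.3% of all genes were). At an unadjusted p under 0.05 there was 1 member, Ndufa5, and over all genes 5.73% reached that level. The smallest limma adjusted p of any member was 0.861. The count of members higher in knockout was 13 of 35 without wild type 1 (median -0.03), 26 without wild type 2 (median 0.07), 25 after a further quantile normalization (median 0.05) and 29 with array weights (median 0.07), with 0 members passing in each.

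The size that the data leave room for is given by the unadjusted 95% intervals. For 33 of the 35 members the whole interval lay within 0.5 log2 units of 0, and for 24 within 0.3. The exceptions at 0.5 were Ndufa12 (-0.17 to 0.72) and Ndufa1 (-0.51 to 0.10).

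**Figure D1:**
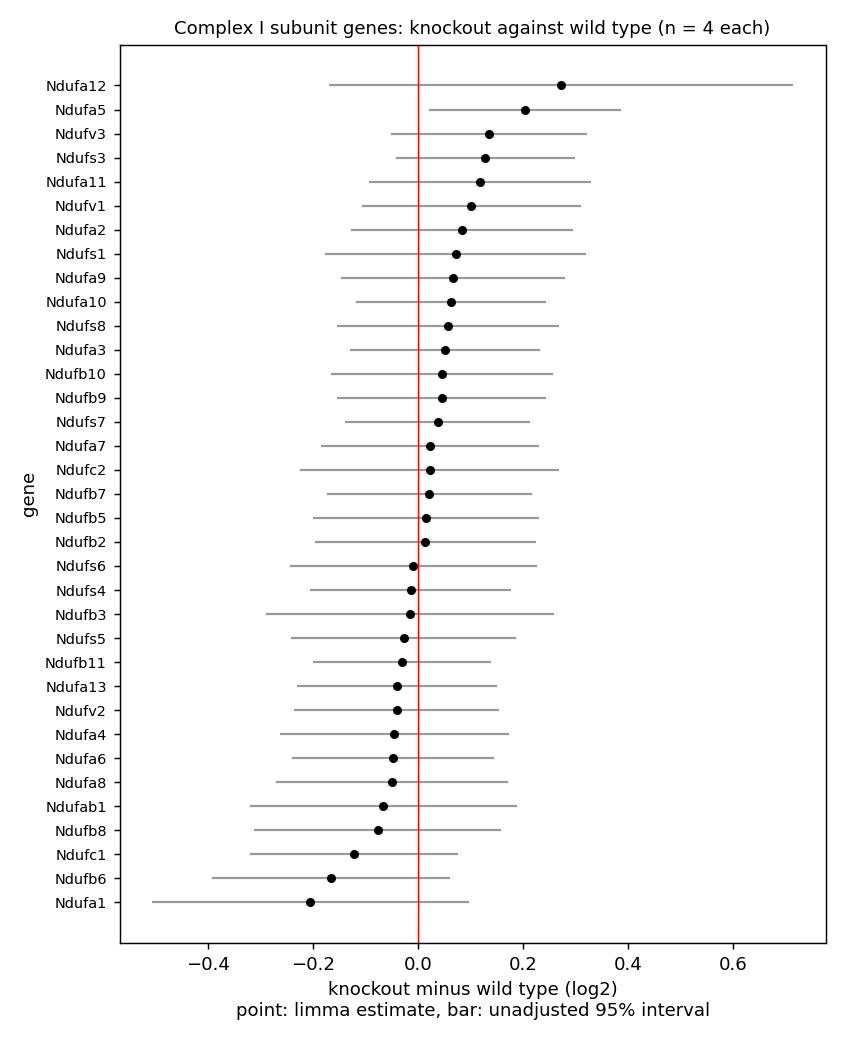
Difference between knockout and wild type (log2, horizontal axis) for each of the 35 complex I members (vertical axis), as limma estimates with unadjusted 95% intervals, n = 4 per genotype. The estimates run from -0.21 to 0.27, and 34 of 35 intervals hold 0.

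In the N module, Ndufv1, which binds NADH and the flavin, measured 9.56, 9.70, 9.69 and 9.80 in wild types 1 to 4 and 9.66, 9.96, 9.84 and 9.69 in knockouts 1 to 4. The groups overlapped, with knockout 2 highest and wild type 1 lowest (difference 0.10, SE 0.10, limma adjusted p = 0.917). Ndufs1, the large iron-sulphur subunit, measured 8.85, 9.36, 9.02 and 9.03 in wild type and 9.02, 9.26, 9.23 and 9.03 in knockout. Its highest and lowest values were both in wild type (difference 0.07, limma adjusted p = 0.942). Ndufv2, an iron-sulphur subunit next to Ndufv1, had means of 10.89 ± 0.12 and 10.85 ± 0.08 (SD, n = 4 each; limma adjusted p = 0.966). The accessory subunit Ndufv3 measured 6.68 to 6.91 in wild type and 6.87 to 7.02 in knockout, so that only wild type 1 reached into the knockout range (difference 0.14, SE 0.09, limma adjusted p = 0.876). Over the module 6 of 10 members were higher in knockout, with a median difference of 0.05.

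All 5 Q module members were higher in knockout, by 0.04 to 0.20, and 0 passed the threshold; over all genes 45.3% were higher. Ndufa5, an accessory subunit of this arm, measured 7.67, 7.81, 7.70 and 7.59 in wild types 1 to 4 and 7.81, 7.95, 7.93 and 7.90 in knockouts 1 to 4. The groups did not overlap, although wild type 2 and knockout 1 lay next to each other. The difference was 0.20 (SE 0.08, 1.15-fold, unadjusted p = 0.0318, limma adjusted p = 0.861). Ndufs3, a core subunit of the Q module, measured 9.94, 10.09, 9.96 and 10.01 in wild type and 10.15, 10.14, 10.11 and 10.11 in knockout. These groups did not overlap either (difference 0.13, SE 0.08, limma adjusted p = 0.876), and a further cluster of Ndufs3 differed by 0.16. Members with separated groups thus numbered 2 of 35 with knockout higher, against 1.48% of all genes, and 0 with knockout lower, against 2.14% (either direction 3.62%). Ndufs7, which carries the last iron-sulphur cluster before ubiquinone, and Ndufs8, which carries a pair of clusters before it, differed by 0.04 and 0.06 (limma adjusted p = 0.965 and 0.949).

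**Figure D2:**
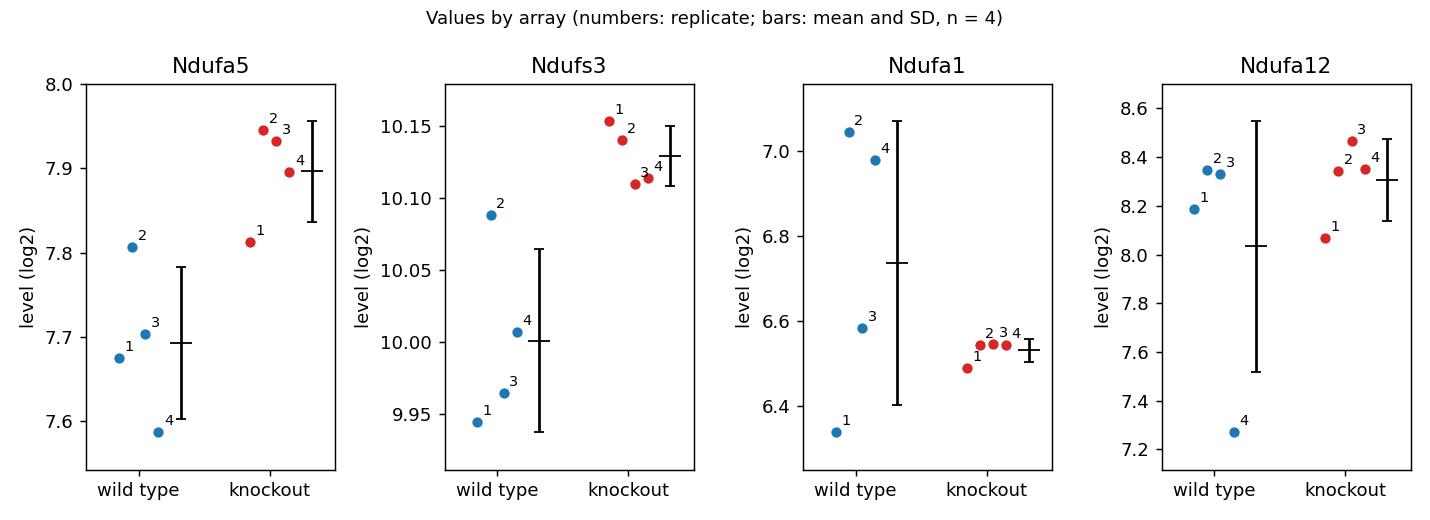
Level (log2, vertical axis) of Ndufa5, Ndufs3, Ndufa1 and Ndufa12 in each array of wild type and knockout; numbers give the replicate, and bars give the mean and SD (n = 4). The genotypes do not overlap for Ndufa5 and Ndufs3, wild type spreads more widely than knockout for Ndufa1, and wild type 4 lies at 7.27 for Ndufa12.

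In the proximal membrane arm 4 of 9 members were higher in knockout and the median difference was -0.03. Ndufa1, a small X-linked subunit needed for assembly, measured 6.34, 7.05, 6.58 and 6.98 in wild types 1 to 4 and 6.49, 6.54, 6.55 and 6.54 in knockouts 1 to 4. The wild types fell on both sides of the knockouts, which spanned a far narrower range (SD 0.33 against 0.03; difference -0.21, SE 0.14, limma adjusted p = 0.876). The difference was -0.34 without wild type 1, -0.10 without wild type 2 and -0.12 without wild type 4. Ndufc1 had means of 9.20 ± 0.14 and 9.07 ± 0.03 (SD, n = 4 each; difference -0.12, limma adjusted p = 0.887), and its knockouts lay within the range of wild types 1 to 4 except for knockout 1 at 9.03.

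In the distal membrane arm 5 of 9 members were higher in knockout, with a median difference of 0.01. Ndufb6 measured 9.67, 10.09, 9.79 and 9.90 in wild types 1 to 4 and 9.70, 9.80, 9.75 and 9.55 in knockouts 1 to 4. Wild type 2 stood highest and knockout 4 lowest (difference -0.17, SE 0.10, limma adjusted p = 0.876). Ndufb3 differed by -0.02 and had an SD of 0.26 in wild type and 0.13 in knockout. Ndufab1, the mitochondrial acyl carrier protein that is also part of complex I, differed by -0.07 (limma adjusted p = 0.950), and Ndufa4 by -0.05 (limma adjusted p = 0.966).

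Ndufa12, an accessory subunit of the N module, had the widest range of any member. It measured 8.19, 8.35, 8.33 and 7.27 in wild types 1 to 4 and 8.07, 8.34, 8.47 and 8.35 in knockouts 1 to 4. Wild type 4 alone was low, 0.80 below the lowest of the other 7 arrays. By a gap of that size, 2 genes, Ndufa12 included, were lowest in wild type 4. The count was 11 in wild type 2, 11 in knockout 4 and 2 in wild type 3. It was 0 in wild type 1 and in knockouts 1 to 3. For Ndufa12 the difference between genotypes was 0.27 (SE 0.20, limma adjusted p = 0.886), and it was 0.02 without wild type 4.

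Members varied more among wild types than among knockouts. The median SD was 0.14 in wild type and 0.09 in knockout, and the SD was larger in wild type for 29 of 35 members. Over all genes it was larger in wild type for 67.6%, with median SDs of 0.16 and 0.11. Wild type 2 held the highest value of 16 of the 35 members (24.6% of all genes had their highest value there), and wild type 1 the lowest of 19 (10.1% of all genes). The highest and the lowest members were thus most often found in these wild types. Wild type 2 also held the lowest value of 21.1% of all genes, more than any other array, but of 0 members. It had the lowest array weight in the genotype fit (0.323).

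Myh7, the myosin heavy chain of slow fibres, was then related to each member, since the share of slow fibres in a piece of mixed muscle can vary. Myh7 measured 6.13, 8.92, 5.33 and 8.36 in wild types 1 to 4 and 7.48, 8.81, 9.24 and 5.21 in knockouts 1 to 4. Arrays of both genotypes were spread over this range of 4.03 log2 units, with wild type 1, wild type 3 and knockout 4 low (difference between genotypes 0.50, SE 0.88, limma adjusted p = 0.949). In a bulk sample, fewer slow fibres and less RNA per fibre cannot be told apart. The mean level of the 35 members was 8.87, 9.14, 8.95 and 9.03 in wild types 1 to 4 and 8.97, 9.07, 9.05 and 8.97 in knockouts 1 to 4. The 4 arrays with the most Myh7 (knockout 3, wild type 2, knockout 2 and wild type 4) had the 4 highest member means.

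**Figure D3:**
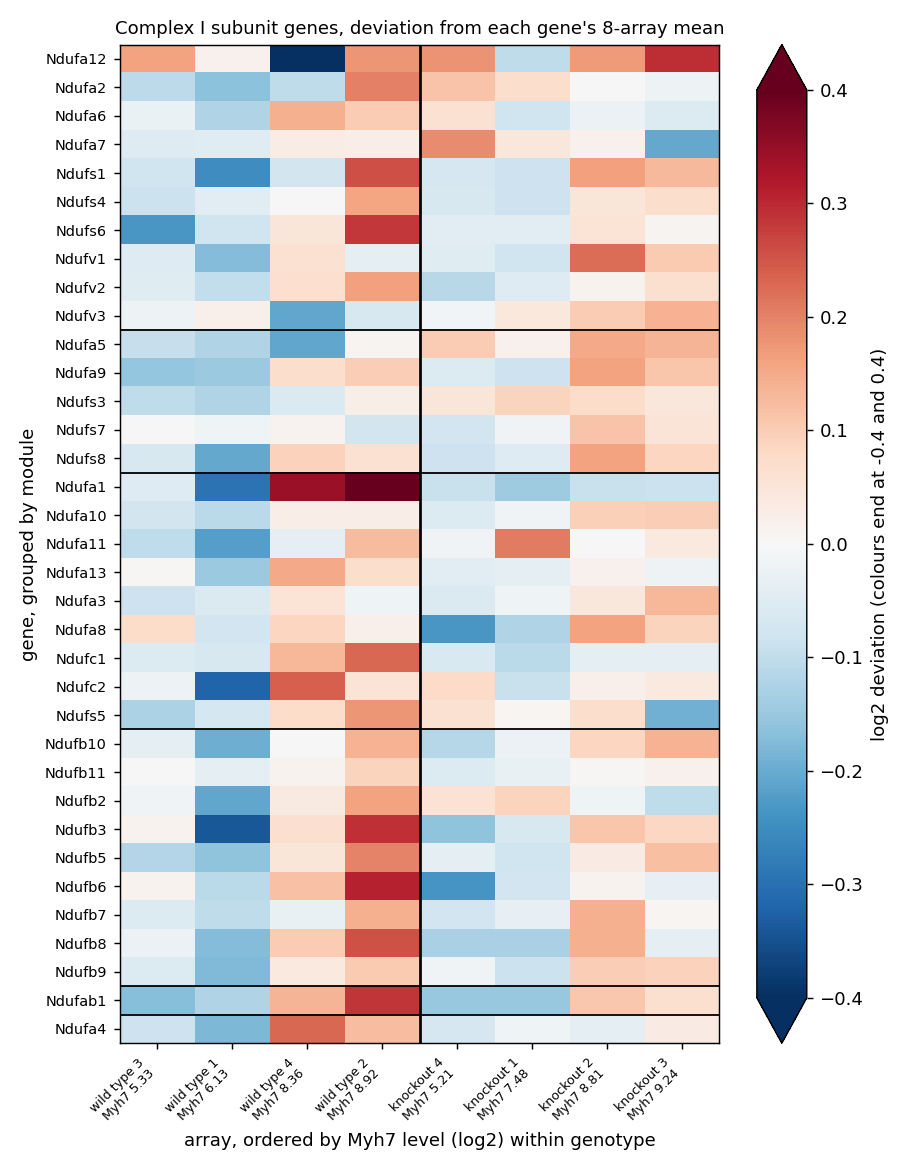
Deviation of each complex I member (rows, grouped by module in the order N, Q, proximal arm, distal arm, Ndufab1, Ndufa4) from its own mean over 8 arrays, in log2 units by colour; columns are arrays, ordered by Myh7 level within wild type (left) and knockout (right). Most rows turn from blue to red towards high Myh7 in both genotypes, and single cells stand out for Ndufa12 in wild type 4 and for Ndufa1 in wild types 2 and 4.

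With genotype in the fit, 33 of 35 members had a positive slope on Myh7 (50.5% of all genes). The median slope was 0.0424 log2 units per log2 unit of Myh7, against 0.000518 over all genes. Over the whole Myh7 range that is 0.17 log2 units, and 0.37 for the steepest member. Of the 35 members, 0 passed a 5% false discovery rate in limma (0.0351% of all genes did), with a smallest limma adjusted p of 0.750. At an unadjusted p under 0.05 there were 4 members, Ndufab1, Ndufb3, Ndufb6 and Ndufa9, each with a positive slope; of all genes 5.96% reached that level and 3.05% did so with a positive slope. The count of members was 1 without wild type 1, wild type 2 or knockout 2 (4.1%, 7.46% and 4.34% of all genes). It was 6 without wild type 3 (5.2%), 8 with median centring (6.06%) and 12 with an intensity trend (5.89%). Every member's unadjusted 95% interval lay between -0.2 and 0.2. The members share the same 8 arrays, so the count of positive slopes is not a count of independent observations. Without knockout 4 and wild type 3, the arrays farthest from the median Myh7 level, 33 slopes were positive and the median was 0.0722. Leaving out wild type 2 alone gave 29 positive slopes and a median of 0.0359.

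Of 8 other slow-fibre genes 6 passed for a positive slope, and the median slope of the 8 was 0.712. The exceptions were Myl2, with a slope of 0.749 (limma adjusted p = 0.10), and Myh7b, with 0.00607 (limma adjusted p = 0.991). Tnni1 and Tnnc1, slow troponin subunits, had slopes of 0.877 and 0.832.

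**Figure D4:**
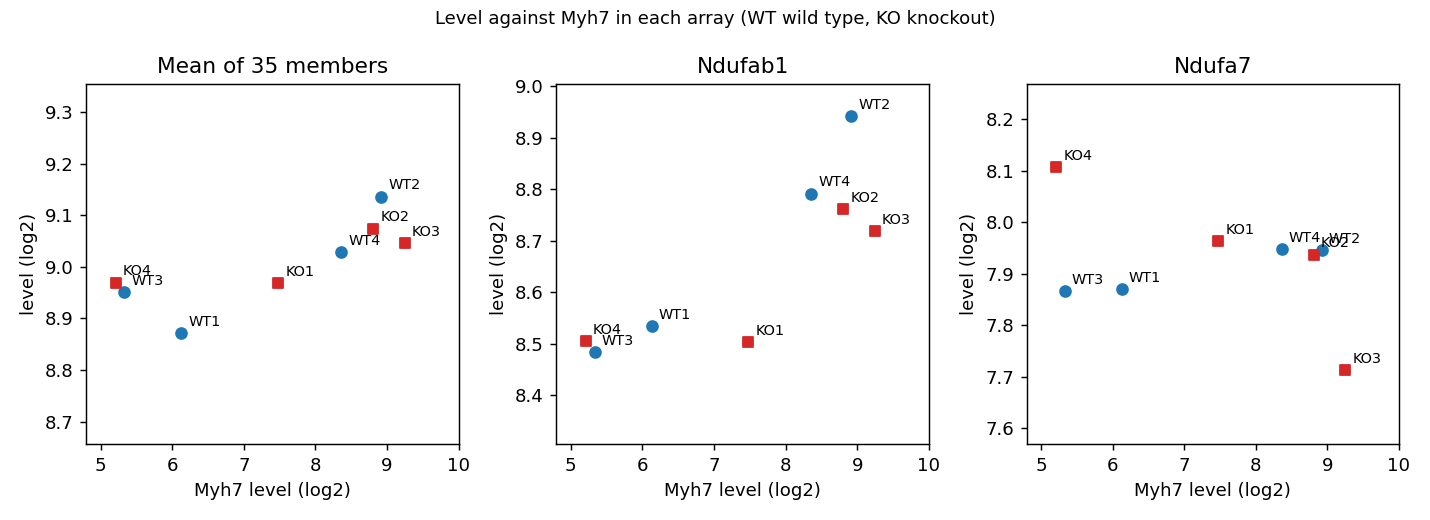
Level (log2, vertical axis) against Myh7 level (log2, horizontal axis) in each of the 8 arrays, for the mean of the 35 members, for Ndufab1 and for Ndufa7; circles are wild type (WT) and squares knockout (KO), labelled by replicate. The member mean and Ndufab1 are highest at high Myh7, while Ndufa7 is highest in knockout 4 and lowest in knockout 3.

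Ndufab1 had the steepest slope, 0.0916 (SE 0.0290, limma adjusted p = 0.750). It measured 8.53, 8.94, 8.48 and 8.79 in wild types 1 to 4 and 8.50, 8.76, 8.72 and 8.50 in knockouts 1 to 4. The 4 arrays with the most Myh7 lay at or above 8.72 and the other 4 at or below 8.53, without a value between. Ndufb3 had a slope of 0.0841 (SE 0.0349), Ndufa1 of 0.0818 (SE 0.0404; 0.149 without knockout 4) and Ndufs1 of 0.0712 (SE 0.0327). At the other end Ndufa12 had a slope of -0.0445, Ndufa7 of -0.0291 and Ndufv3 of 0.000801. Ndufa7, an accessory subunit of the N module, measured 7.87, 7.95, 7.87 and 7.95 in wild types 1 to 4 and 7.96, 7.94, 7.71 and 8.11 in knockouts 1 to 4. Its extremes were the knockouts with the most and the least Myh7.

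By module, slopes were positive for 8 of 10 N module members (median 0.0295), 5 of 5 in the Q module (0.0163), 9 of 9 in the proximal arm (0.0353) and 9 of 9 in the distal arm (0.0595). The 6 core subunits described here had positive slopes, from 0.0160 for Ndufs3 to 0.0712 for Ndufs1; those of Ndufs8, Ndufv2, Ndufv1 and Ndufs7 were 0.0573, 0.0510, 0.0444 and 0.0163. Genes of complexes II to V stood close by, with 37 of 37 positive, a median of 0.0432 and 0 past the threshold.

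The slope was also fitted within each genotype. The median over the members was 0.0612 in wild type (0.00559 over all genes) and 0.0338 in knockout (-0.00267 over all genes). Slopes were positive for 32 of 35 members in wild type (52.8% of all genes) and for 29 of 35 in knockout (47.7% of all genes). Within each genotype 0 members passed in limma; 0.14% of all genes passed in wild type and 0.0552% in knockout. The slope was lower in knockout than in wild type for 26 of 35 members (52% of all genes), or 16 of 35 without knockout 4, when the knockout median was 0.0618. Without wild type 3 the wild-type median was 0.0938. The widest gap was that of Ndufa1, with 0.170 (SE 0.0449) in wild type and 0.00152 (SE 0.0428) in knockout (unadjusted p = 0.0223 for the difference, limma adjusted p = 0.236). It was the 1 member with an unadjusted p under 0.05, against 16.9% of all genes, and 0 members and 0 genes passed after limma adjustment. Without wild type 4 these counts were 4 members, 26.8% of all genes and 29 genes passing, and without knockout 4 they were 0 members and 6.36%. The share of all genes passing within wild type was 4.1% without wild type 4, with 0 members among them.

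**Figure D5:**
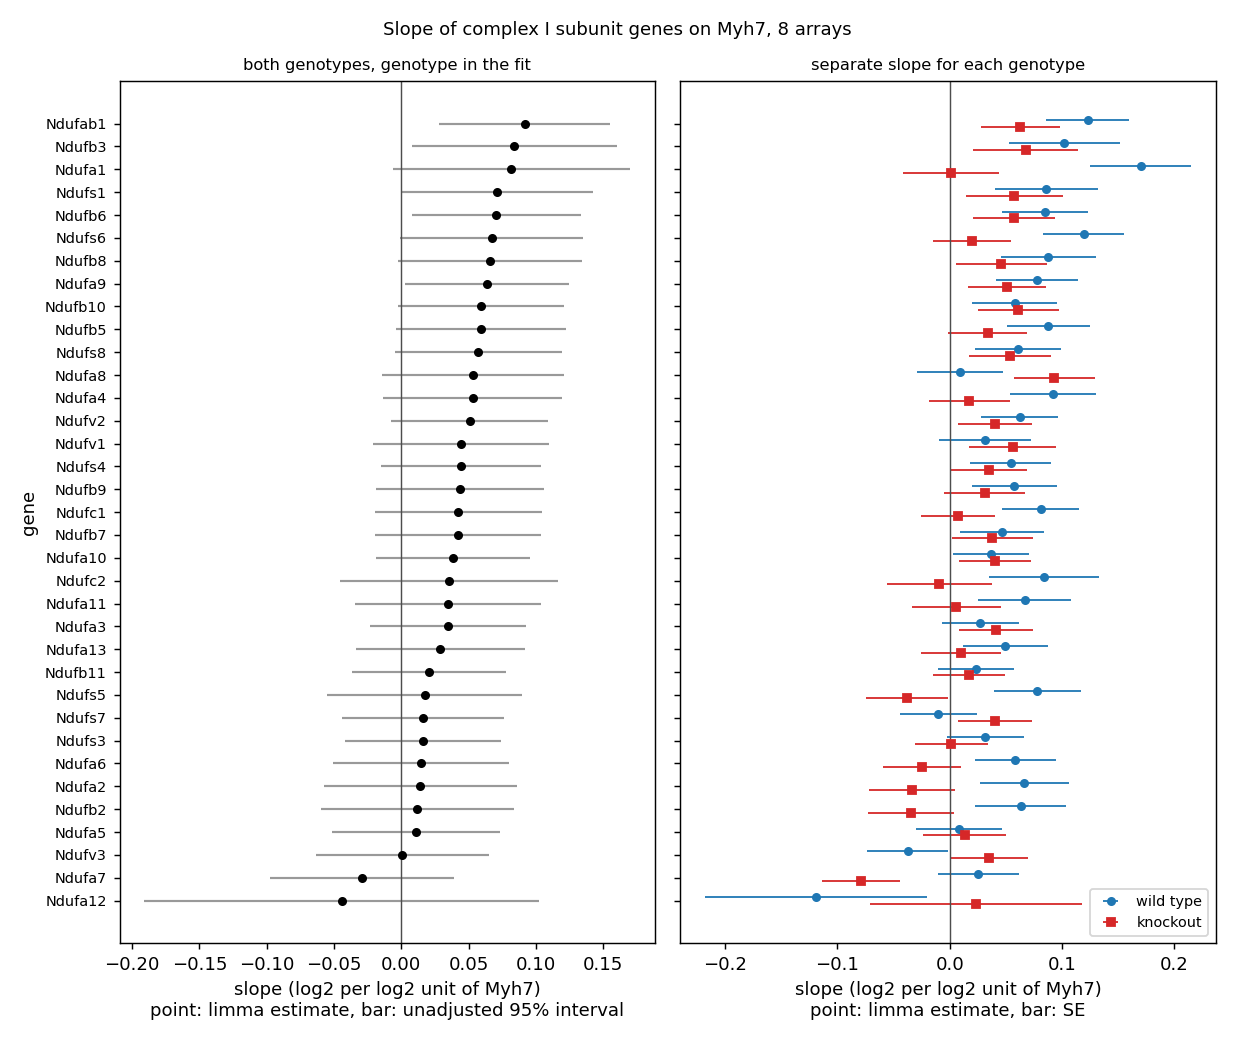
Slope on Myh7 (log2 per log2 unit, horizontal axes) for each of the 35 members (vertical axis), ordered by slope. Left, both genotypes fitted together with unadjusted 95% intervals; right, separate slopes for wild type (circles) and knockout (squares) with SE. In the left panel 33 slopes are above 0, and in the right panel Ndufa1 has the widest gap between genotypes.

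Markers of other fibres and cell types were set against the same arrays. Myh2, the myosin of fast oxidative fibres, measured 10.49, 10.93, 11.38 and 11.29 in wild types 1 to 4 and 10.12, 11.52, 11.46 and 9.03 in knockouts 1 to 4, and so was lowest in knockout 4, while wild type 3, with little Myh7, had the most Myh2 of the wild types (Myh7 slope 0.342, limma adjusted p = 0.756). Fitted per genotype, the Myh7 slope of Myh2 was 0.646 among knockouts but 0.00606 among wild types. That gap had an unadjusted p of 0.000647 and did not pass in limma (adjusted p = 0.173). Among the 10 fast-fibre genes, Myh2 included, 4 had a positive Myh7 slope and 0 passed. Their median slope was -0.00511, and that of Myh2 was the highest. With Myh2 in place of Myh7, 30 of 35 members had a positive slope (median 0.0478) and 0 passed. Endothelial markers had positive Myh7 slopes in 7 of 8 cases (median 0.0473), and adipocyte markers in 2 of 7 (median -0.176). In limma 0 of either list passed at a false discovery rate of 5%. An unadjusted p under 0.05 was reached by 2 and 3 markers, and by 5.96% of all genes. Macrophage markers had negative slopes in 12 of 14 cases, 0 of which passed in limma (6 of the 14 at an unadjusted p under 0.05); all 14 were measured, and their mean level was 5.52 to 5.66 in wild type and 5.69 to 6.39 in knockout, highest in knockout 4. At an unadjusted p under 0.05, 7 of the 14 differed between genotypes (5.73% of all genes did), and 0 passed after limma adjustment. The lowest mean level of a macrophage marker was 4.58, and log2 values have no 0. The part of these lists in the differences and slopes of the complex I members was not tested.

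Proteins that build complex I but leave the finished enzyme were measured through 19 assembly factor genes. Of these 11 were higher in knockout (median difference 0.01) and 13 had a positive Myh7 slope (median 0.0197), and 0 passed either test. Ndufaf2, a relative of Ndufa12 that holds its place during assembly, measured 5.42, 5.33, 5.17 and 5.07 in wild types 1 to 4 and 5.55, 5.38, 5.47 and 5.59 in knockouts 1 to 4. It had the smallest p of the list, and its groups overlapped only through wild type 1 (difference 0.25, SE 0.10, limma adjusted p = 0.859). Ndufaf1, an early assembly factor, differed by 0.13 (limma adjusted p = 0.880). Ndufaf4 and Dmac2 had the smallest p values for the slope, at 0.0799 and 0.0644 (limma adjusted p = 0.815 and 0.849).

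Among 11 regulators of mitochondrial genes 0 passed either test. Ppargc1a, which encodes PGC-1alpha, measured 8.77, 9.01, 9.51 and 9.09 in wild types 1 to 4 and 8.65, 8.81, 9.13 and 8.43 in knockouts 1 to 4. The groups overlapped (difference -0.34, SE 0.17, limma adjusted p = 0.869), and its highest array, wild type 3, was among those with the least Myh7 (slope 0.0478, SE 0.0546).

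For 5 members a further cluster was present. The direction between genotypes matched for Ndufa11, Ndufab1, Ndufc1 and Ndufs3, and was opposite for Ndufb11 (-0.03 in the cluster used and 0.03 in the other). Probe positions were not available here, so whether each of these clusters lies at its gene's own locus was not checked.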

How the data were processed

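RNA of gastrocnemius from 8 mice (4 per genotype, separate animals) was hybridised to 1 array each. The authors deposited log2 values. Per the submitters' processing notes they come from Affymetrix Expression Console by RMA; settings, versions and build are not given in the sources used here. RMA includes a normalization between arrays, so a shift common to most genes would not be seen. Of 35556 transcript clusters, 21789 were annotated to 1 gene, 1621 to several and 12146 were unnamed here; 21698 matched RefSeq (GRCm38.p6). The cluster with the highest mean stood for each of 19938 genes, with no filter on dim genes. limma 3.58.1 (lmFit, eBayes; R 4.3.3) fitted genotype alone, genotype with Myh7, and a Myh7 slope per genotype, and p-values were Benjamini-Hochberg adjusted over all genes (threshold 0.05). All tests were two-sided, and the fits were tested on simulated data. Deviations from the genotype means correlated at -0.10 to 0.22 between arrays with the same replicate number, and were not compared with other pairs. The labels name no litter or day shared by equal numbers, so the number was not used as a block in the main fits.

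Members and lists were chosen with earlier results of these data known. Named genes were the core subunits, Ndufa4 and Ndufab1, the 3 members of smallest p in each direction, the 4 steepest and 3 least steep slopes, the members of highest and lowest mean, and the 2 assembly factors of smallest p per fit, with Kat2a, Myh7, Myh2 and Ppargc1a. Others named were chosen after their values were seen. Alternatives covered normalization, dim genes, clusters, prior, array weights, the block, threshold, covariate, fibre marker and single arrays. The number of arrays limits the precision, with a median SE of 0.105 log2 units for a difference.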

Additional observations from a re-analysis of the deposited data

Results flagged for a closer look

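In groups of 4 arrays, the highest or lowest value was set against its nearest neighbour as a share of the group's range; 48 groups were tested and 2 lay past the critical value of 0.829. Chance puts about 1 in 20 groups past it. Ndufa1 measured 6.49 in knockout 1, below the other knockouts (0.956 of the range), although the range itself was narrow. Ndufa12 measured 7.27 in wild type 4, with the other wild types at 8.19 to 8.35 (0.851 of the range), and without that array its genotype difference was 0.02.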

How the results depend on the processing

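In both fits 0 of the 35 members passed under every alternative run, a false discovery rate of 0.10 included. For the 16 named members, 14 of 256 alternative differences changed sign (in 6 members) and 14 of 304 slopes (in 5 members), and no call changed; the cause of each sign change was not tested. With the replicate number as a block, Kat2a differed by -0.66 with limma adjusted p = 0.113. With that block the members' median slope was 0.0341, and 28 of 35 slopes were positive. At an unadjusted p under 0.05 there was 1 member (4.56% of all genes), and the slopes were -0.0120 for Ndufa5 and -0.00944 for Ndufv3. After a further quantile normalization the differences of Dmac2 and Ndufb3 were 0.00154 and 0.00846, the slopes of Ndufa5 and Ndufv3 were -0.00545 and -0.0126, and 27 slopes were positive. With array weights the differences were 0.0412 for Dmac2, 0.0253 for Ndufa4, 0.0224 for Ndufab1, 0.103 for Ndufb3 and 0.0128 for Ndufv2. The slope of Ndufa12 was 0.00169 on Myh2, and without the 2 arrays farthest from the median Myh7 level it was 0.00692 and that of Ndufv3 was -0.0219.

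Leaving out each array in turn, Kat2a ran from -0.68 to -0.64 and lost its call without wild type 3, wild type 4 or any knockout. Differences ran from -0.0848 to 0.0514 for Dmac2, -0.820 to 0.0107 for Myh2, -0.117 to 1.33 for Myh7, -0.113 to 0.0233 for Ndufa4, -0.0361 to 0.0953 for Ndufa7, -0.134 to 0.0184 for Ndufab1, -0.131 to 0.0793 for Ndufb3, -0.00159 to 0.0968 for Ndufs8 and -0.0809 to 0.00646 for Ndufv2. Slopes ran from -0.106 to 0.0213 for Ndufa12, -0.00401 to 0.0218 for Ndufa5, -0.0457 to 0.00343 for Ndufa7, -0.000360 to 0.0292 for Ndufs7, -0.0233 to 0.0137 for Ndufv3 and -0.0163 to 0.136 for Ppargc1a. Genes called between genotypes numbered 3, and 0 with the block and without wild type 3, wild type 4 or any 1 knockout, 5 without wild type 1, 17 with an intensity trend and 11 without the dimmest 25% of genes; genes called for the slope numbered 7, and 20 without wild type 3 and 57 on Myh2.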
